A study of Mus musculus with 77 samples.

Results

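The antigen presentation genes described here are B2m, H2-K1, H2-D1, Tap1, Tap2, Psmb8, Psmb9, Cd74, H2-Aa and H2-Ab1, and their expression was followed in the retina of a mouse model of oxygen-induced retinopathy (OIR). All probes other than control probes whose transcript belongs to one of these genes were used, which gave 12 of 55681 probes for 10 of the 21154 genes with a symbol on the array. H2-K1 and H2-Ab1 had 2 probes each, and the brightest probe stood for a gene. C57BL/6 pups were kept from postnatal day 7 (P7) to P12 in 75% oxygen (OIR, hyperoxia) or in 21% oxygen (control, normoxia). Retinas were collected on P12, P17 and P28 from 13 OIR and 12 control mice, 13 OIR and 12 control mice, and 13 OIR and 14 control mice, respectively. On each of the 77 two-color arrays the retinal RNA of 1 mouse was hybridized with a universal mouse reference RNA. Litters were assigned as a whole to 1 oxygen level and the litter of a mouse is not given in the labels, so an effect of the litter could not be taken out of the comparisons.

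Cells display fragments of their own proteins on class I molecules, which pair a heavy chain (H2-K1, H2-D1) with the light chain beta-2 microglobulin (B2m). The fragments are cut by the proteasome, in which Psmb8 and Psmb9 replace standard catalytic subunits to form the immunoproteasome, and are carried into the endoplasmic reticulum by the transporter of Tap1 and Tap2. Class II molecules are built from an alpha chain (H2-Aa) and a beta chain (H2-Ab1) with the invariant chain Cd74 as their chaperone, and present material that the cell has taken up. Interferon gamma raises both pathways in many cell types, and in the resting retina class II molecules are known from few cells, mainly of the myeloid lineage.

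Both RNAs shared an array in the same dye assignment. The labels give Cy5 for the retina, yet Cy3 was the brighter dye for the rod genes Sag, Gnat1 and Pde6b on each of the 77 arrays (log2 Cy3 over Cy5 of at least 4.18). All values below are therefore log2 ratios of Cy3 over Cy5, taken as retina over reference, against the dye given in the labels. The offset ratio, used unless stated otherwise, adds an offset of 50 to background-corrected signals before the ratio is taken, which pulls the ratios of dim spots toward 0. The deposited ratio is the one in the authors' own table of processed values. A gene is called where limma's p, adjusted over all probes, was under 0.05, and a slide carries several arrays. In the retina channel, 13755 to 34305 probes of an array exceeded background clearly, and the median count was 20839 in P17 control and 20282 in P17 OIR retinas but 32165.5 and 32884 on P28. The retina signals of B2m, H2-K1 and H2-D1 were well above background on all 77 arrays, those of Tap2 and Cd74 on 76, and those of H2-Ab1 on 71. Psmb8 reached this level on 45 arrays and Psmb9 on 39. Tap1 was not well above background on any array of P12 or P17, and H2-Aa on 3 of 77 arrays only, so no fold is given for Tap1 and H2-Aa on P12 and P17.

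All members but B2m and Cd74 lie in the major histocompatibility complex of chromosome 17. In the order of the protein-coding genes in RefSeq (GRCm38.p6), Psmb9, Tap1, Psmb8 and Tap2 are direct neighbors, and H2-Ab1 is followed by H2-Aa. The table of promoters used here holds a window for 7 of the 10 genes. The bases before the start of the class I genes are shown because H2-K1 was the member called on 2 days, and those between Psmb9 and Tap1 because these genes start back to back. Capitals mark matches, on either strand, to the interferon-stimulated response element GAAANNGAAA, its shorter form GAANNGAAA, the NF-kappaB motif GGGNNTTNCC and the CCAAT box. The shorter form and the wording of the NF-kappaB motif were chosen after these windows had been read. All 4 sequences run 5′ to 3′ in RefSeq GRCm38.p6.

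H2-K1, chr17:34000348-34000597, minus strand: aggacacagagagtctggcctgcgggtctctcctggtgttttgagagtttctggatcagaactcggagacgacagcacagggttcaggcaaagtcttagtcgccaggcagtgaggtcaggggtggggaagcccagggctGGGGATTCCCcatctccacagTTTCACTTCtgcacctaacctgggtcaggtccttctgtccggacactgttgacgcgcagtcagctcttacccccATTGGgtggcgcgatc

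H2-D1, chr17:35262844-35263093, plus strand: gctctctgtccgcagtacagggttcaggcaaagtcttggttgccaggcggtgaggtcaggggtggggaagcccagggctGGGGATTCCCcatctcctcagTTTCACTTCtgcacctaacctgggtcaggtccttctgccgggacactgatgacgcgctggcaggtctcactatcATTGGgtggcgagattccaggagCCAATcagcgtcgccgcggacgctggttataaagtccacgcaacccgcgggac

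B2m, chr2:122147437-122147686, plus strand: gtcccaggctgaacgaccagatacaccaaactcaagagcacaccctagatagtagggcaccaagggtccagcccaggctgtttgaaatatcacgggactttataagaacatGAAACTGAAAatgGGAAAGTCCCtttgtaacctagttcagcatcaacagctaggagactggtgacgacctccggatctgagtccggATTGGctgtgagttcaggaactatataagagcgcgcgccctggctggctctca

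Psmb9 to Tap1, chr17:34187331-34187555, plus strand of Tap1: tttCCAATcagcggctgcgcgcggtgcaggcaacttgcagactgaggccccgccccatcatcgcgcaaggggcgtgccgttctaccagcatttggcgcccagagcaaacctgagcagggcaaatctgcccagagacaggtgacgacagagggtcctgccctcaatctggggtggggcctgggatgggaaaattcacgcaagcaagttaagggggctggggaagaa

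H2-K1 and H2-D1 shared an unbroken run of 47 bases (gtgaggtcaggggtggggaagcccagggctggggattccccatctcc) that starts 141 bases before the start of H2-K1 and 201 bases before that of H2-D1. This run holds the NF-kappaB match of both genes, and the short interferon element follows it. B2m carried the full interferon element and an NF-kappaB match close to it, while the Psmb9 to Tap1 interval held a CCAAT box at the Psmb9 end. Over the 250 bases before the start in 32851 promoter windows, 2.98% hold the full interferon element, 6.31% the short one, 4.11% the NF-kappaB motif and 33.8% a CCAAT box, while the Psmb9 to Tap1 interval is 225 bases long. These matches describe letters only.

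The first question was whether these genes differed between OIR and control retinas on each day. On P12, at the end of the oxygen exposure, 0 of 10 genes passed the adjusted threshold of 0.05 and 0 passed it unadjusted, while 0.0233% of all probes were called. On the deposited ratio 0 of 10 were called on P12 and 2 passed the unadjusted threshold. On P17, 2 of 10 genes were called, both higher in OIR retinas, against 1.13% of all probes (0.803% higher). These were H2-Ab1 and H2-K1. All 10 members had a positive difference on P17 and 5 passed the unadjusted threshold, with a median log2 difference of 0.43 against 0.00097 over all probes. This count and median include Tap1 and H2-Aa, which were not well above background on any P17 array. The median over all probes likewise includes probes near background. On P28, 1 of 10 genes was called, H2-K1, against 0.0611% of all probes, and the median log2 difference was 0.084 against 0.00029 over all probes. The members' median on P28 on the deposited ratio was 0.45 against 0.0079, with a positive difference in 10 of 10, and with an offset of 0 it was 0.33. On the deposited ratio 1 member was called on P28, but the share of all probes called in that fit is not given here. On the ratios that the authors deposited, 7 of 10 members were called on P17, against 2.64% of all probes. In bulk retina, a change in the number of cells of a type and a change in RNA per cell cannot be told apart. This holds for every difference given here.

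**Figure D1:**
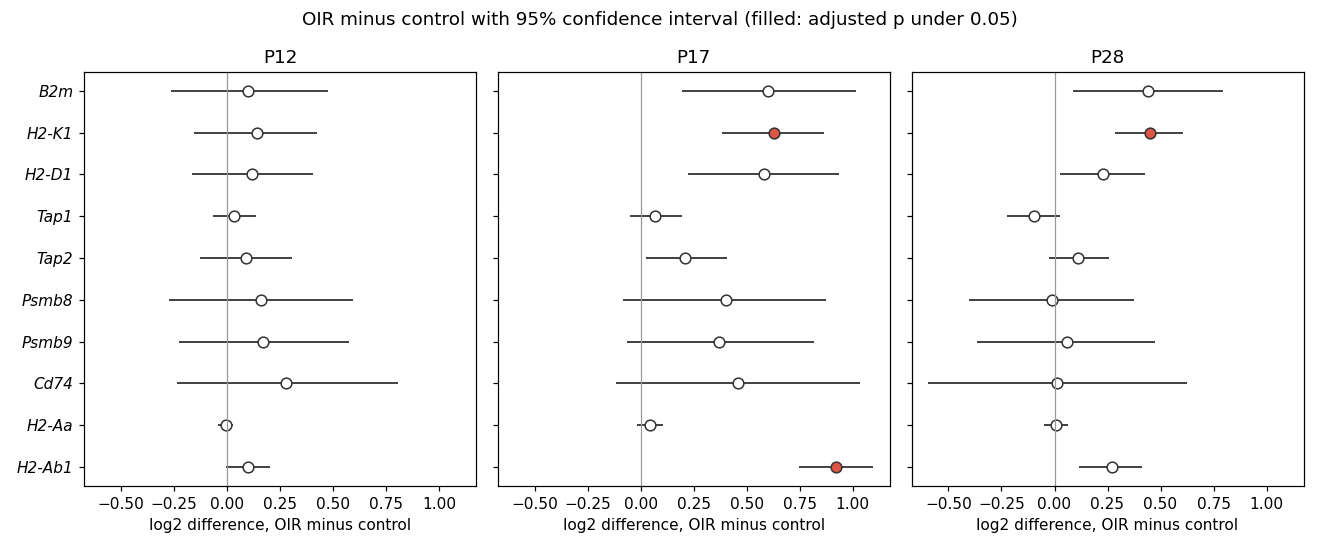
The log2 difference of OIR minus control retinas (horizontal axis) for the 10 genes on P12, P17 and P28, with the 95% confidence interval as a line and a filled point where the adjusted p was under 0.05. On P12 no point is filled, on P17 those of H2-K1 and H2-Ab1, and on P28 that of H2-K1.

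H2-K1, a class I heavy chain, was higher in OIR retinas on P17 and on P28. On P17 its log2 ratio was lowest at -3.16, median -2.72 and highest at -1.92 in the control group, and -2.48, -2.0 and -1.78 in the OIR group. All 13 OIR mice were above the control median, though the groups overlapped, since 2 control mice lay within the OIR range. The difference was 0.63 on the log2 scale (SE 0.11, 1.54-fold, adjusted p = 0.00248). It was positive on all 6 slides that held both groups, between 0.17 and 1.0. On P28 the control values ran from -2.64 over a median of -2.43 to -2.18, and the OIR values from -2.30 over -1.91 to -1.65. Again 13 of 13 OIR mice were above the control median, and 8 were above every control mouse. The difference of 0.45 (SE 0.076, 1.36-fold, adjusted p = 0.00781) was positive on all 3 slides with both groups, between 0.40 and 0.62, but it was not called with a trended, robust variance (adjusted p = 0.0837) nor in one fit over all groups (adjusted p = 0.0694). On P12 the difference of 0.14 (SE 0.14) was not called.

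The second H2-K1 probe, for the same transcript, gave 0.50 on P17 (SE 0.21, adjusted p = 0.388) and 0.27 on P28 (SE 0.11, adjusted p = 0.636), so the 2 probes had the same direction but not the same call. It was well above background on 70 arrays. On the deposited ratio both H2-K1 probes were called on P17, at 0.84 (adjusted p = 4.46e-06) and 0.86 (adjusted p = 0.00198). On that ratio the OIR and control groups of the brightest H2-K1 probe did not overlap on P17, at -3.29 to -2.09 against -3.84 to -3.33, nor on P28, at -2.66 to -1.91 against -3.18 to -2.75. Of all genes, 0.671% on P17 and 0.0425% on P28 had groups that did not overlap on that ratio. Class I genes are close copies of each other, so a signal on the probes of H2-K1 and H2-D1 may include other class I transcripts.

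H2-D1, the other class I heavy chain measured, ran on P17 from -3.01 over a median of -2.06 to -1.36 in control retinas and from -2.45 over -1.56 to -1.03 in OIR retinas. The groups overlapped widely, though 12 OIR mice of 13 exceeded the median of the controls. The log2 difference of 0.58 (SE 0.17) missed the threshold (adjusted p = 0.126). With the slide as a block, a fit that called 1.49% of all probes, it was 0.53 (SE 0.11, adjusted p = 0.0188), and it was positive on 6 of 6 shared slides, between 0.067 and 0.98. On P28 H2-D1 differed by 0.23 (SE 0.095, adjusted p = 0.641).

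The P17 values of B2m, the light chain of class I molecules, were -5.28, -4.38 and -3.20 (lowest, median, highest) in control and -4.71, -3.74 and -3.32 in OIR retinas. The groups overlapped, and the median of the controls was exceeded in 12 OIR mice of 13. The log2 difference was 0.60 (SE 0.20, adjusted p = 0.181) on P17 and 0.44 (SE 0.17, adjusted p = 0.634) on P28. On P28 with the slide as a block the difference of B2m was 0.63 (SE 0.13, adjusted p = 0.0495), in a fit that called 0.219% of all probes. On the deposited ratio B2m was 0.80 higher on P17 (SE 0.15, adjusted p = 0.00206), and each of the 13 OIR mice exceeded the median of the controls.

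**Figure D2:**
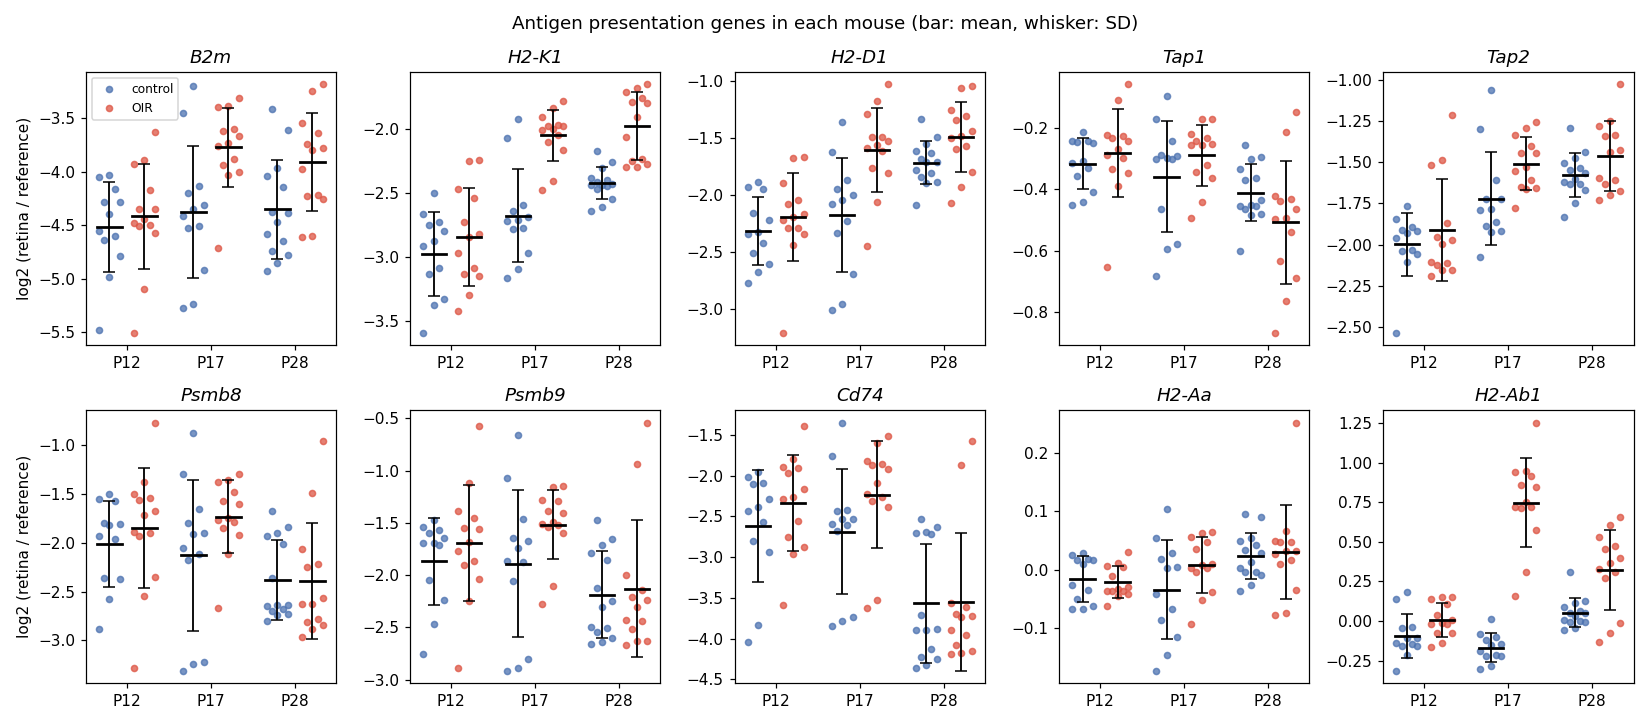
The log2 ratio of retina over reference (vertical axis) of the 10 genes in every mouse, by day, in control (blue) and OIR (red) retinas, where the bar is the group mean and the whisker the SD. The OIR points of H2-Ab1 on P17 lie between 0.16 and 1.25, above all control points, and those of H2-K1 lie above the control median on P17 and P28.

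Of the peptide transporter, Tap2 was measured on nearly all arrays and Tap1 was close to background. Tap2 ran on P17 from -2.08 over a median of -1.79 to -1.06 in control retinas and from -1.78 over -1.53 to -1.26 in OIR retinas. All 13 OIR mice were above the control median, but none was above the highest control mouse. The log2 difference was 0.21 (SE 0.089, adjusted p = 0.374). It was 0.088 on P12 and 0.11 on P28, neither of them called. Tap1 was well above background in 8 control and 8 OIR retinas of P28, where it differed by -0.097 (SE 0.058, adjusted p = 0.692).

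The spread of the immunoproteasome subunits on P17 depended on the scale. On the offset ratio Psmb8 had an SD of 0.77 in P17 control and 0.37 in P17 OIR retinas, and Psmb9 of 0.70 and 0.33. In the retina channel without the reference these SDs were 0.22 and 0.22 for Psmb8, and 0.19 and 0.22 for Psmb9. On the deposited ratio they were 0.67 and 0.54 for Psmb8, and 0.48 and 0.42 for Psmb9. In P17 control and OIR retinas 5 and 7 arrays held Psmb8 well above background, and 4 and 7 arrays held Psmb9. The P17 differences on the offset ratio, 0.40 for Psmb8 (SE 0.23, adjusted p = 0.572) and 0.37 for Psmb9 (SE 0.21, adjusted p = 0.559), were not called. On the deposited ratio, however, both were called on P17, although most control arrays did not hold them well above background, so the size of these differences is uncertain. Psmb9 was 1.12 higher there (SE 0.18, adjusted p = 0.000219), with -5.62, -4.67 and -3.91 in control and -4.46, -3.51 and -2.91 in OIR retinas, and 10 of 13 OIR mice lay above all control mice. Psmb8 was 0.94 higher (SE 0.24, adjusted p = 0.0255). In the retina channel without the reference, where 3.04% of all probes were called, Psmb9 was called at 0.31 (SE 0.079, adjusted p = 0.0262) and Psmb8 was not, at 0.17 (SE 0.085, adjusted p = 0.444). On P28 the differences on the offset ratio were -0.014 for Psmb8 and 0.057 for Psmb9.

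H2-Ab1, the class II beta chain, had the largest difference of the 10 genes on P17. Its log2 ratio was -0.30, -0.17 and 0.015 (lowest, median, highest) in control retinas and 0.16, 0.75 and 1.25 in OIR retinas. The groups did not overlap, a pattern found in 0.293% of all genes. The difference was 0.92 (SE 0.083, 1.89-fold, adjusted p = 1.18e-07), and all 6 slides with both groups showed it, between 0.56 and 1.28. The second H2-Ab1 probe gave 0.80 (SE 0.073, adjusted p = 1.18e-07), also without overlap, with control values up to 0.0099 and OIR values from 0.08. In the retina channel, H2-Ab1 was well above background in 8 of 12 control and 13 of 13 OIR retinas of P17.

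The size of the H2-Ab1 difference on P17 depended on the scale. It was 2.67 on the deposited ratio (SE 0.22, 6.36-fold, adjusted p = 1.28e-08) and 1.53 in the retina channel alone (SE 0.13, 2.88-fold, adjusted p = 2.47e-08). In the reference channel alone H2-Ab1 differed by 0.073 (SE 0.057, adjusted p = 1). On P12 the offset ratio of H2-Ab1 was 0.099 higher in OIR retinas (SE 0.048, unadjusted p = 0.0515 from limma). On P28 it was -0.058, 0.041 and 0.31 in control and -0.13, 0.37 and 0.65 in OIR retinas. Most OIR mice, 10 of 13, were above the control median and 8 were above all control mice, while the lowest OIR mouse was below every control mouse. The P28 difference of 0.27 (SE 0.07) missed the threshold (adjusted p = 0.253), as did that of 0.27 of the second probe (adjusted p = 0.143).

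Cd74, the invariant chain, and H2-Aa, the class II alpha chain, were not called on any of the 3 days on the offset ratio. Cd74 ran on P17 from -3.84 over a median of -2.57 to -1.35 in control and from -3.63 over -2.09 to -1.51 in OIR retinas. The ranges overlapped almost fully, and 11 OIR mice of 13 exceeded the median of the controls. The log2 difference of Cd74 was 0.46 (SE 0.28, adjusted p = 0.585), and 0.87 on the deposited ratio (SE 0.24, adjusted p = 0.0475). On P28 it was 0.014 (SE 0.29). H2-Aa stayed between -0.17 and 0.10 on P17 in both groups, near equal brightness of both channels, and was not well above background in any retina of that day.

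Whether H2-Ab1 differed more than Cd74 on P17 was tested within mice, on the log2 ratio of H2-Ab1 minus that of Cd74, in 6 comparisons over 3 days and 2 ratios. On the offset ratio the OIR retinas had 2.98 ± 0.82 (SD, n = 13) and the control retinas 2.52 ± 0.72 (SD, n = 12), and 10 OIR mice of 13 exceeded the median of the controls (two-sided permutation test, p = 0.152, adjusted p = 0.456). On the deposited ratio the values were 5.69 ± 0.76 (SD, n = 13) and 3.89 ± 0.60 (SD, n = 12), and all 13 OIR mice exceeded the median of the controls (two-sided permutation test, p = 1e-05, the smallest that the permutations can give, adjusted p = 6e-05). A larger difference of H2-Ab1 than of Cd74 was thus seen on the deposited ratio and not on the offset ratio, which pulls dim spots toward 0. The retina channel alone was not part of this test. There the P17 means of control and OIR retinas were 6.42 and 7.94 for H2-Ab1, and 6.79 and 7.14 for Cd74.

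**Figure D3:**
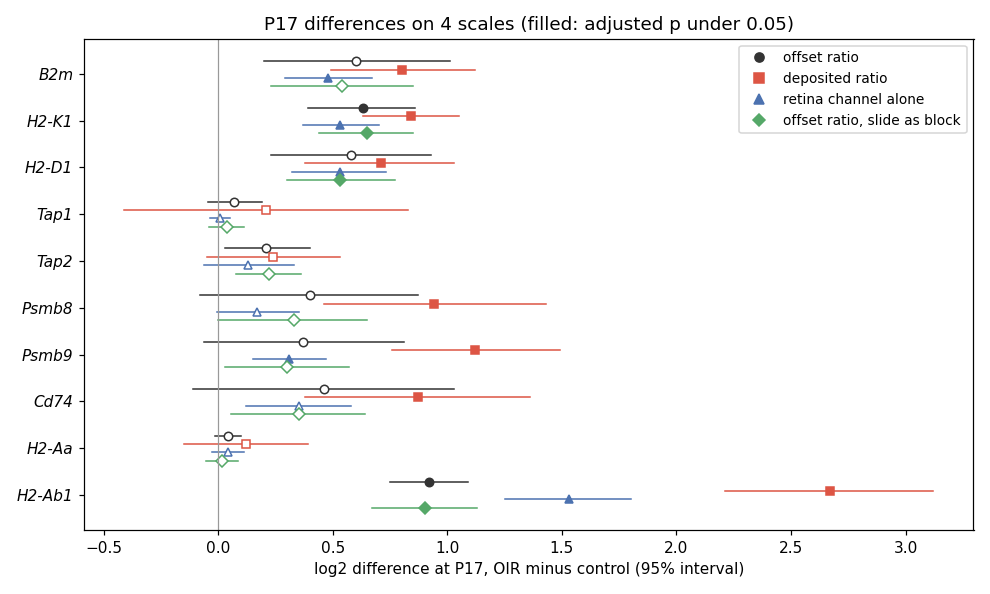
The log2 difference of OIR minus control retinas on P17 (horizontal axis) of the 10 genes on 4 scales, with 95% confidence intervals as lines and filled points where the adjusted p was under 0.05. H2-K1 and H2-Ab1 are filled on all 4 scales, and H2-Ab1 runs from 0.90 with the slide as a block to 2.67 on the deposited ratio.

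The next question was whether the OIR effect itself changed between days. From P12 to P17 the effect on H2-Ab1 grew by 0.82 on the log2 scale (SE 0.10, adjusted p = 1.36e-08), and it was the 1 member called, against 0.48% of all probes. From P17 to P28 it fell by 0.65 (SE 0.098, adjusted p = 1.51e-05), again the 1 member called, against 0.278% of all probes. Both comparisons share the P17 mice. The effect on H2-K1 was 0.49 larger on P17 than on P12 without passing the test (SE 0.16, adjusted p = 0.35), and was called with the slide as a block at 0.54 (SE 0.13, adjusted p = 0.0184), where 0.941% of all probes were called. From P17 to P28 the effect on H2-K1 differed by -0.18, with a 95% confidence interval from -0.50 to 0.13 (adjusted p = 0.575). For H2-D1 this difference between P17 and P12 was 0.45 (SE 0.20, adjusted p = 0.886), and 0.52 with the slide as a block (SE 0.13, adjusted p = 0.0184).

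In control retinas alone, which show the course with age, 0 of 10 members were called between P12 and P17, against 1.28% of all probes, and 2 passed the unadjusted threshold. Between P17 and P28, 3 of 10 were called, against 13.4% of all probes. H2-D1 rose by 0.46 (SE 0.14, adjusted p = 0.0152) and H2-Ab1 by 0.22 (SE 0.07, adjusted p = 0.0239). Cd74 went the other way and fell by 0.88 (SE 0.28, adjusted p = 0.0257), from a median of -2.57 to -3.89. With the slide as a block, 4 members were called higher and 1 lower, in a fit that called 14.5% of all probes. Among them were H2-D1, H2-Ab1 and Cd74, in the same directions, at 0.57, 0.21 and -0.53. On the deposited ratio 7 members were called higher and 1 lower, and the share of all probes for that fit is not given here. The direction of Psmb8 and Psmb9 with age turned with the scale, at -0.25 and -0.30 on the offset ratio and 1.01 and 0.80 on the deposited ratio. More probes were well above background on the P28 arrays, as given above, and the part of this in the age differences was not tested.

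The other genes of both pathways were then counted from lists, which leave out the 10 members. Of 21 measured genes of the class I pathway, 0 were called on P17, 18 had a positive difference and 7 passed the unadjusted threshold, with a median log2 difference of 0.14. H2-Q7, a class I gene of the Qa region, had the largest at 0.64 (SE 0.18, adjusted p = 0.0855), and Tapbp, which holds class I molecules at the transporter, had 0.28 (SE 0.08, adjusted p = 0.108). Both were called with the slide as a block (adjusted p = 0.0371 and 0.00316), and on the deposited ratio 5 of the 21 genes were called higher. Psmb10, the remaining inducible catalytic subunit of the immunoproteasome, differed by 0.22 (SE 0.088, adjusted p = 0.335). Nlrc5, an activator of class I genes, differed by 0.11 and was well above background on 24 of 77 arrays.

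Of 20 genes of the class II pathway, 0 were called on P17 and 13 had a positive difference, with a median of 0.049 and 4 at an unadjusted p under 0.05. Ctss, the protease that trims the invariant chain, differed by 0.35 (SE 0.11, adjusted p = 0.169), and was called on the deposited ratio at 0.56 (adjusted p = 0.00805) and with the slide as a block at 0.31 (adjusted p = 0.0492). On P28 Ctss differed by 0.42 (SE 0.087, adjusted p = 0.0623), and was called on the deposited ratio at 0.62 (adjusted p = 0.0471) and with the slide as a block at 0.46 (adjusted p = 0.0246). H2-Eb1, another class II beta chain, differed by 0.074 (SE 0.045, adjusted p = 0.594) and was well above background on 34 arrays. Ciita, the activator of class II genes, was well above background on 18 arrays and differed by -0.0029. Of 14 standard proteasome genes, Psmb5, the catalytic subunit that Psmb8 replaces, was called lower at -0.24 (SE 0.059, adjusted p = 0.0407), while 2 of the 14 had a positive difference and the list median was -0.12. Psmb5 was called in the offset ratio and in neither the deposited ratio nor the fit with the slide as a block.

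Of 15 interferon signaling genes, 2 were called higher on P17, the transcription factors Irf8 at 0.41 (SE 0.085, adjusted p = 0.0101) and Irf9 at 0.33 (SE 0.081, adjusted p = 0.0379). Irf1, which drives class I genes, differed by 0.45 (SE 0.11, adjusted p = 0.052), and was called on the deposited ratio at 0.84 (adjusted p = 0.00889). With the slide as a block, Irf1 was called at 0.46 (adjusted p = 0.0212) and Irf9 at 0.35 (adjusted p = 0.0361), while Irf8 missed the threshold at 0.37 (adjusted p = 0.059). The median of this list was 0.041, and 8 of the 15 genes had a positive difference. On P12 and P28, 0 of the class I, class II, standard proteasome and interferon genes were called on the offset ratio. At an unadjusted p under 0.05 there were 1, 0, 0 and 0 of them on P12 and 4, 4, 0 and 1 on P28.

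**Figure D4:**
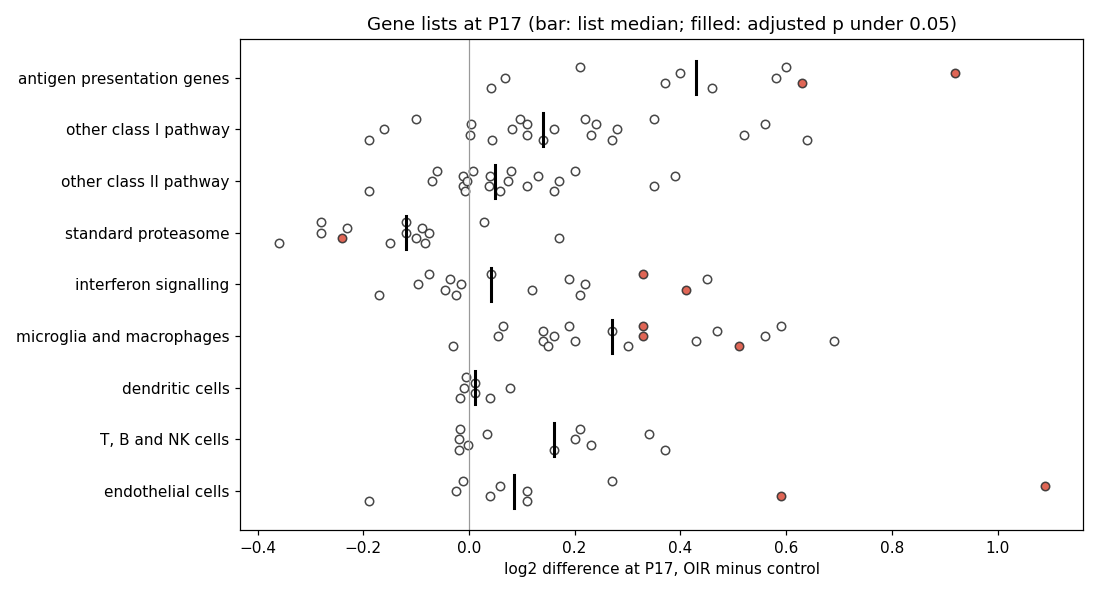
The log2 difference of OIR minus control retinas on P17 (horizontal axis) of each gene in 9 lists, with the list median as a bar and filled points where the adjusted p was under 0.05. The antigen presentation genes have a median of 0.43, the microglia and macrophage markers of 0.27 and the standard proteasome genes of -0.12.

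Markers of cell types that the retina can hold were measured beside the members. Of 19 markers of microglia and macrophages, 3 were called higher in OIR retinas on P17 and 18 had a positive difference, with a median of 0.27. These were Csf1r, the receptor for colony-stimulating factor, at 0.51 (SE 0.099, adjusted p = 0.0058), Aif1 at 0.33 (SE 0.052, adjusted p = 0.000619) and the complement gene C1qc at 0.33 (SE 0.066, adjusted p = 0.00877). Of these 19 markers, 9 were called higher on the deposited ratio. The mean log2 ratio over the 19 markers ran from -0.84 to -0.10 in control and from -0.37 to -0.031 in OIR retinas of P17. Markers of resting microglia did not pass the test, with P2ry12 at -0.03 (SE 0.032), Tmem119 at 0.15 (SE 0.19) and Cx3cr1 at 0.19 (SE 0.13), although Cx3cr1 was called on the deposited ratio at 0.90 (adjusted p = 0.022). On P28, Csf1r was the 1 marker of this list called on the offset ratio, at 0.41 (SE 0.077, adjusted p = 0.0306). On that day 14 of the 19 had a positive difference, with a median of 0.087. The unadjusted threshold was passed by 9 of them on P28 and by 9 on P17. On P28, 3 were called higher on the deposited ratio, for which the share of all probes called is not given here. With the slide as a block 2 were called higher on P28, in a fit that called 0.219% of all probes. On P12 there was 0 called, with 1 at an unadjusted p under 0.05. The part of these cells in the differences of H2-K1 and H2-Ab1 was not tested.

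Of 7 dendritic cell markers and 11 markers of T, B and NK cells, 0 were called on P17, and 0 passed the unadjusted threshold in either list. Of these, Cd209a, Xcr1, Cd3g, Cd79a, Klrb1c and Ms4a1 were not well above background on any array. On the deposited ratio 1 marker of the T, B and NK cells was called on P17, Cd79b at 1.26 (SE 0.23, adjusted p = 0.00123). Cd79b was well above background on 28 arrays, and on the offset ratio it differed by 0.37 (SE 0.27, adjusted p = 0.649). Of 10 endothelial markers, 7 had a positive difference on P17, with a median of 0.085. Egfl7 at 1.09 (SE 0.092, adjusted p = 4.47e-08) and Eng at 0.59 (SE 0.081, adjusted p = 9.41e-05) were called higher on that day. On P12, 2 of the 10 had a positive difference, with a median of -0.22, and Egfl7 was called lower at -0.86 (SE 0.095, adjusted p = 7.68e-05). Of 5 measured red blood cell genes, the hemoglobin chain Hba-a1 was called on P17, at 1.38 (SE 0.25, adjusted p = 0.00264). With the slide as a block, 0 of the 5 were called and 4 passed the unadjusted threshold, and Hba-a1 was at 1.37 (SE 0.33, adjusted p = 0.0506).

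The genes whose 6 group means ran closest to those of the called members were then listed, by the root mean square distance of the centered means. For H2-Ab1 they were Slc25a37, a mitochondrial iron importer, at a distance of 0.0488, S100a16 at 0.0643 and Pmvk at 0.0878, beside a root mean square of 0.31 of H2-Ab1 itself. For H2-K1 they were Rarres2, the precursor of chemerin, at 0.0444, Pdlim4 at 0.0488 and Tnip2 at 0.0851, beside 0.377. On P17 Rarres2 differed by 0.67 (SE 0.09) and Slc25a37 by 0.97 (SE 0.12), against 0.63 for H2-K1 and 0.92 for H2-Ab1. These genes were picked for near group means, those of P17 included, so their similar P17 differences follow from the choice.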

How the data were processed

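Retinal RNA of 77 mice in 6 groups was analyzed, 1 two-color array per mouse. Groups were taken from the sample titles. Per the file headers, the authors extracted the scanned arrays with Agilent Feature Extraction (version 10.7.3.1), which gave median signals and median local backgrounds as intensity values without normalization. The table that the authors deposited holds log2 ratios of Cy3 to Cy5 computed from the processed signals, which are background-subtracted and dye-normalized. On the array with the poorest match 100% of its values, after rounding, equaled that ratio of the scanner file within 0.001. GeneSpring was named by the authors for normalization without settings.

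For the offset ratio, median signals were corrected with normexp (offset 50) in limma 3.58.1 (R 4.3.3, with the package data.table in version 1.17.8), normalized by loess within arrays, and spots of a probe were averaged. Control spots and spots marked as outliers had no weight in the loess. Outlier spots were left out. The OIR effect of a day was tested with limma's moderated statistic, each day fitted alone, and changes between days as contrasts in one model of 6 group means. Benjamini-Hochberg adjustment ran over all 55681 probes, and an adjusted p under 0.05 was called. The fit was tested on simulated data. Within-mouse differences were tested with 100000 permutations. The brightest probe, by mean retina signal, stood for a gene. Transcripts were named through RefSeq, and 28026 probes carried a symbol.

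The 10 members were all described. Of the other lists, counts and called genes were given, with some further genes chosen after their values were seen. The members and lists were chosen with earlier results of these data known. Alternatives were the deposited ratio, no background subtraction, an offset of 0, the retina channel alone, the slide as a block, a filter on probes well above background, array weights, a trended and robust variance, and one fit over all groups. The deposited ratio with the slide as a block was added after seeing the data. The 77 arrays lay on 11 slides. The labels do not say which mice shared a litter, and the number of arrays limits the precision. The array design is of genome build mm9 per the file headers, and RefSeq sequences are of GRCm38.p6, so no position on the array design was used. Blood arrays were not analysed here.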

Additional observations from a re-analysis of the deposited data

Results flagged for a closer look

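The OIR effect on H2-Ab1 differed between days in a direct test of the difference. It was 0.82 larger on P17 than on P12 (log2 scale, SE 0.10, limma adjusted p = 1.36e-08), and the change from P17 to P28 was -0.65 (SE 0.098, adjusted p = 1.51e-05). On P17, 13 of 13 OIR mice were above all control mice. Both differences were called under all alternatives in which they were fitted. On the offset ratio without a block, no other member was called for such a change, while with the slide as a block H2-K1 (0.54) and H2-D1 (0.52) were called from P12 to P17 (adjusted p = 0.0184 each), and with array weights H2-K1 was (0.55, adjusted p = 0.0144).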

How the results depend on the processing

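The calls of H2-Ab1 and H2-K1 on P17 were kept under all 9 alternatives. The share of all probes called also moved with the processing. On P17 it was 1.13% on the offset ratio, 2.64% on the deposited ratio, 3.04% in the retina channel and 1.49% with the slide as a block. Where this text gives no share for an alternative, its count of members cannot be set against all probes. Such a count describes the processing only. The number of members called on P17 was 2 and became 7 on the deposited ratio, 4 without background subtraction, 5 with an offset of 0, 5 in the retina channel alone, 4 with array weights, 3 with the slide as a block, 3 in one fit over all groups and 6 on the deposited ratio with the slide as a block. On P28 it was 1 and became 3 in the retina channel, 2 with the slide as a block, 0 with a trended and robust variance and 0 in one fit over all groups. For the change of the OIR effect from P12 to P17 it was 1 and became 4 on the deposited ratio, 2 without background subtraction, 3 with an offset of 0, 5 in the retina channel, 3 with the slide as a block, 2 with array weights and 6 on the deposited ratio with the slide as a block. For control retinas of P17 against P12 it was 0 and became 1, 1, 2 and 1 on the deposited ratio, without background subtraction, with an offset of 0 and in the retina channel, and 2 on the deposited ratio with the slide as a block. For control retinas of P28 against P17 it was 3 and became 8, 5, 6 and 9 in the same order, 5 with the slide as a block, 6 with array weights and 8 on the deposited ratio with the slide as a block. In that last comparison the direction turned for Tap1 in the retina channel (0.092), for Psmb8 on the deposited ratio (1.01), in the retina channel (0.26) and on the deposited ratio with the slide as a block (1.03), and for Psmb9 likewise (0.80, 0.26 and 0.78). The cause was not tested. Beyond these, 66 values changed sign without a call on either side. On P12, 0 members were called under every alternative. Signals near background limit Tap1, H2-Aa, Psmb8 and Psmb9. No paired analysis was possible because mouse numbers are not shared between groups.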
